A study of Homo sapiens with 3 samples.

Results

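The aldehyde dehydrogenases compared here are 10 enzymes, ALDH1A1, ALDH1A2, ALDH1A3, ALDH1B1, ALDH2, ALDH3A1, ALDH3A2, ALDH3B1, ALDH1L1 and ALDH7A1, whose mRNA was measured by microarray in 3 lung cancer cell lines. They were chosen by name: every non-control probe whose gene symbol was in this list was used, which gave 18 probes for the 10 genes out of 58200 probes for 43316 genes. H1975 (NCI-H1975) is an established non-small cell lung cancer line with mutated EGFR that is sensitive to osimertinib, an inhibitor of the mutant EGFR kinase. OR1 and OR2 are osimertinib-resistant lines derived from H1975 by exposure to rising drug concentrations, to a maximum of 2 μmol/L reached over 4 months. The study's methods call OR1 and OR2 clones that were selected independently, and they share the parent and its EGFR mutations. All 3 lines were grown in RPMI medium with fetal bovine serum, and whether osimertinib was in the medium when RNA was taken is not given in the sources used here. Each line was measured on 1 array, so no replicate was measured, no test was possible and no p-value is given.

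Aldehyde dehydrogenases oxidize aldehydes to carboxylic acids with NAD+ or NADP+ as the cofactor. Members of the family make retinoic acid from retinaldehyde, clear acetaldehyde formed from ethanol, remove reactive aldehydes released by lipid peroxidation, and take part in folate and amino acid metabolism. High aldehyde dehydrogenase activity is widely used as a marker of stem-like cells in lung and other carcinomas, and ALDH1A1 and ALDH1A3 are the members most often held to carry it.

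Complementary RNA was hybridized to probes of 60 bases, and the brightness of a spot after background correction by the scanner software is its intensity, in arbitrary units. For a ratio between lines, log2 intensities were first set relative to the 75th percentile of their own array (157.5 for H1975, 138.1 for OR1 and 161.8 for OR2). The software called 26521 to 26736 probes per array well above background, and no spot was saturated. Where only 1 side of a ratio was well above background, the other side was set to the lowest intensity so called on its array (12.56 in H1975, against 11.4 in OR1 and 12.62 in OR2) or to its own intensity if that was higher. Such a ratio is a bound and is written "at least" or "at most". The SD given with a ratio is the technical SD of its log2 value, propagated from the software's error estimates of the spots, with a median of 0.21 over probes. This SD does not cover variation between cultures. For bright probes the error estimate is nearly a fixed share of the intensity, such as 194.9 at 1949 for ALDH3A2 and 238 at 2380 for ALDH3B1 in H1975. It was not measured on repeats of the member probes. Other probes, spotted 10 times per array, had a smaller median SD between spots, 0.054 on the log2 scale. The labelled cell type was checked on marker genes: all 6 epithelial markers (EPCAM, KRT8, KRT18, KRT19, CDH1 and MUC1) were well above background in all 3 lines, with a summed intensity of 261300 in H1975, against 129500 in OR1 and 150600 in OR2. Of that H1975 sum, which is not scaled between arrays, KRT19 made up 149900 and KRT18 75000. The 6 markers differed in how far they changed. Relative to H1975, EPCAM was at 0.0370 in OR1 and 0.0725 in OR2, and CDH1 at 0.0205 and 0.0800. MUC1 was at 0.241 and 0.594, and KRT19 at 0.463 and 0.492. KRT18, at 0.884 and 0.806, and KRT8, at 1.12 and 0.964, lay nearer to 1. Of the lung epithelial markers, NKX2-1 had intensities of 832 in H1975, against 184 in OR1 and 1167 in OR2, SFTPC read 24.0, 79.6 and 120.3, NAPSA read 37.2, 25.1 and 59.8, and SFTPB was not well above background in any line. Of 7 fibroblast markers, COL3A1, DCN, PDGFRA and THY1 were not well above background in any line, LUM was so only in OR1 (at least 5.43 times H1975), COL1A1 had ratios of 1.45 and 0.183, and COL1A2 had 0.162 and at most 0.0615. The 7 summed to 675.5 in H1975, against 687.5 in OR1 and 107.3 in OR2. What part these differences have in the values of the aldehyde dehydrogenases was not tested.

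Of the 10 genes, 7 were well above background in at least 1 line and 6 in all 3 lines. With the brightest probe of each gene and the ratios of 2 and 0.5 that the study's methods give, ALDH1L1 was higher and ALDH1A3 and ALDH3B1 were lower in OR1 than in H1975. That is 1 gene higher and 2 lower, beside 9.17% of all 21869 genes measured in that comparison at a ratio of at least 2 and 9.58% at 0.5 or less. In OR2, ALDH1L1 and ALDH2 were higher and ALDH1A3 was lower, beside 7.72% and 8.7% of 21689 genes. In both lines 1 gene, ALDH1L1, was higher (background 5.09% of 22418 genes) and 1, ALDH1A3, was lower (background 6.32%), and no member passed the ratio in opposite directions (background 0.0223%). With 7 genes measured, these counts are too small to set the family apart from the background. Over the 6 members measured in all lines, the median log2 ratio was -0.20 in OR1 and -0.03 in OR2, against 0.03 and -0.05 over 18591 genes. With spike-in scaling the members' medians were -0.80 and 0.04, and 0 of the 6 were higher in OR1. When 7 spike-in control probes set the scale instead, the median log2 ratio of all genes moved by -0.60 in OR1 and 0.07 in OR2. The genes past the ratio in OR1 then split into 771 higher and 5579 lower, against 2006 and 2094 after scaling on the 75th percentile. Directions in OR1 are therefore relative to the other genes on the array, and each member below whose direction turned under that scaling is named with its value.

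**Figure D1:**
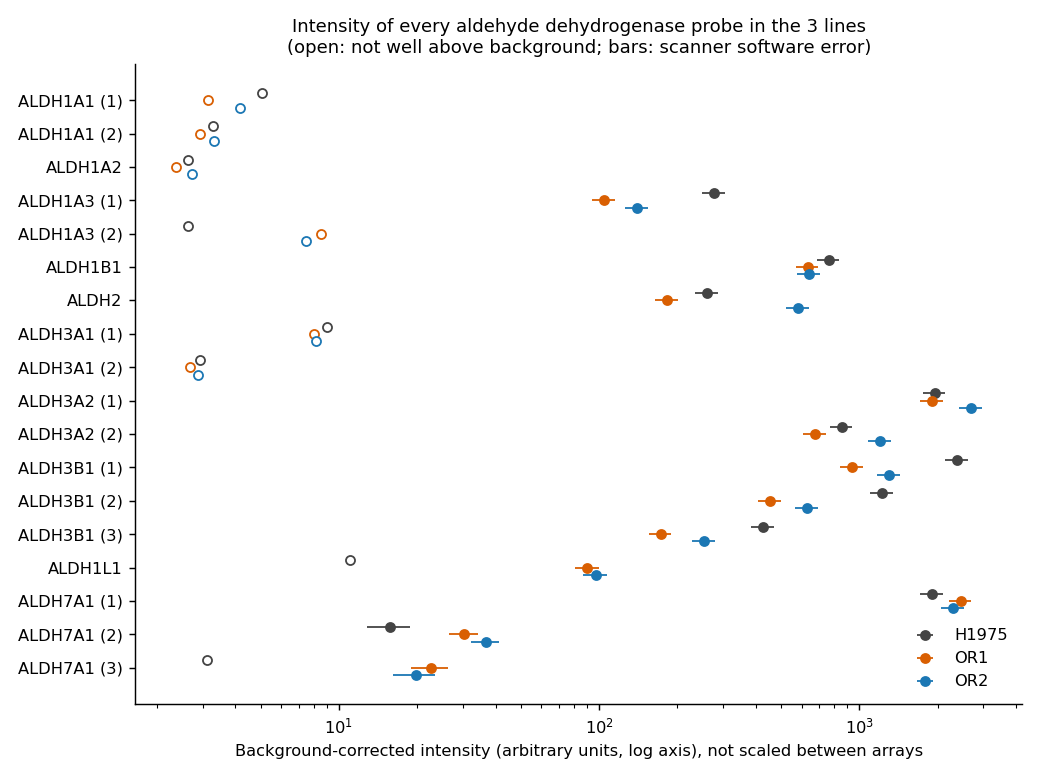
Intensity of each of the 18 probes in H1975, OR1 and OR2, in arbitrary units on a log axis and not scaled between arrays; filled circles are well above background, open circles are not, and bars are the scanner software's error. The 5 probes of ALDH1A1, ALDH1A2 and ALDH3A1 are open in all lines, ALDH2 is brightest in OR2, the 3 ALDH3B1 probes are brightest in H1975, and ALDH1L1 is open in H1975 only.

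Among the ALDH1A enzymes, the main makers of retinoic acid, ALDH1A3 was the only one well above background, and it was dimmer in both resistant lines than in H1975. ALDH1A3 oxidizes retinaldehyde and is a common source of aldehyde dehydrogenase activity in carcinoma cells. Its probe (NM_000693, chromosome 15 of hg19, 101456503 to 101456562, plus strand) had an intensity of 276 in H1975, against 105 in OR1 and 139 in OR2. H1975 was thus brighter than both resistant lines. The ratio to H1975 was 0.433 in OR1 (SD 0.207 on the log2 scale) and 0.491 in OR2 (SD 0.206). The log2 ratio of OR2 over OR1 was 0.18 (SD 0.208), which is within its technical SD. With spike-in scaling the lines lay further apart, with ratios to H1975 of 0.285 in OR1 and 0.515 in OR2 and a ratio of OR2 over OR1 of 1.81. In OR2 the ratio lies next to 0.5 and stayed above it, so that the call was lost, under 4 choices, with 0.505 without scaling, 0.515 with the spike-in probes, 0.517 with the percentile over detected probes and 0.567 with normexp background correction, which also gave 0.520 in OR1. In bulk RNA, fewer cells that express a gene and less of its RNA per cell cannot be told apart.

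A second probe carrying the ALDH1A3 symbol (XR_109231, chromosome 15, 101401818 to 101401877, plus strand) lies 54.7 kb from the first and was not well above background in any line. Its intensities were 2.64 in H1975, against 8.52 in OR1 and 7.45 in OR2. Since the median over both probes takes in these background values, it gave ratios of 1.26 in OR1 and 1.16 in OR2. The accession of this probe was the only 1 of the 18 not found in the RefSeq table used here, and the other 17 carried the same symbol there.

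ALDH1A1, the cytosolic retinaldehyde dehydrogenase after which the stem cell assay is usually explained, was not well above background in any line on either of its probes. The intensities of the brighter probe (NM_000689, chromosome 9, 75540401 to 75540460, minus strand) were 5.04 in H1975, against 3.13 in OR1 and 4.15 in OR2. The other ALDH1A1 probe (75516136 to 75516195) read 3.27, 2.93 and 3.31. ALDH1A2, which supplies retinoic acid in the embryo, had intensities of 2.62 in H1975, against 2.36 in OR1 and 2.72 in OR2 (NM_170697, chromosome 15, 58246532 to 58246591, minus strand). These intensities are all below the lowest value called well above background, so no ratio was computed and any difference between the lines was not detectable with these probes.

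ALDH1B1 and ALDH2 are mitochondrial enzymes that oxidize acetaldehyde, and ALDH2 also clears aldehydes from lipid peroxidation. ALDH2 was the member that differed most between the resistant lines. Its single probe (NM_000690, chromosome 12, 112247448 to 112247507, plus strand) had an intensity of 260 in H1975, against 183 in OR1 and 583 in OR2. OR2 was thus the brightest line and OR1 the dimmest. The ratio to H1975 was 0.802 in OR1 (SD 0.206 on the log2 scale, or 0.529 with spike-in scaling) and 2.18 in OR2 (SD 0.205). OR2 over OR1 was 2.72 (log2 SD 0.205), and ALDH2 was the only member past a ratio of 2 or 0.5 in that comparison, beside 2.48% of 21451 genes at a ratio of at least 2 and 2.89% at 0.5 or less. With normexp background correction the ratio in OR2 was 1.94 and no longer passed 2, while OR2 over OR1 stayed between 2.31 and 4.33 under every processing alternative.

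ALDH1B1, which also oxidizes retinaldehyde, had intensities of 761 in H1975, against 633 in OR1 and 639 in OR2 (NM_000692, chromosome 9, 38397700 to 38397759, plus strand). Its ratios were 0.948 and 0.818, each with a log2 SD of 0.204. The OR1 value was within its technical SD of no change, but it was 0.625 with spike-in scaling, and neither line passed 0.5. The direction of OR2 against OR1 turned with scaling, from a ratio of 0.863 to 1.37 with spike-in scaling.

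**Figure D2:**
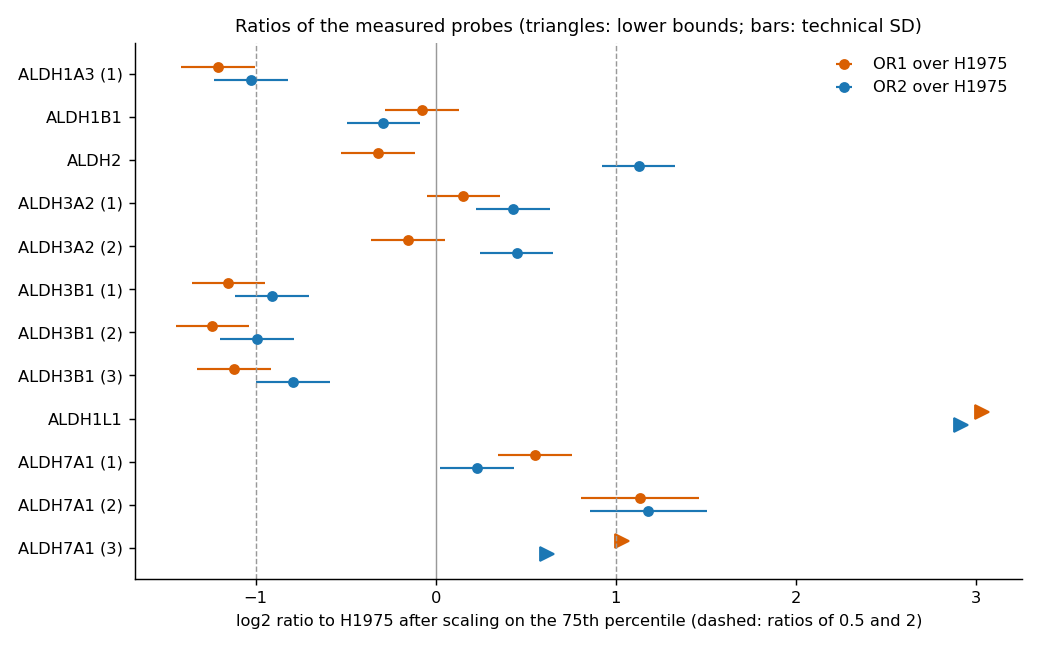
log2 ratio of OR1 and OR2 to H1975 for the 12 probes measured in at least 1 line, after scaling on the 75th percentile; bars are the technical SD, triangles are lower bounds and dashed lines mark ratios of 0.5 and 2. The 3 ALDH3B1 probes lie together near the lower line, ALDH2 lies on different sides of 0 in OR1 and OR2, and ALDH1L1 lies furthest to the right.

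The ALDH3 enzymes act on medium-chain and long-chain aldehydes, many of them products of lipid peroxidation. ALDH3B1, a membrane-bound enzyme of this kind, was dimmer in both resistant lines on each of its 3 probes. The brightest probe (NM_000694, chromosome 11, 67795665 to 67795724, plus strand) had an intensity of 2380 in H1975, against 940 in OR1 and 1303 in OR2, with ratios of 0.450 and 0.533. The probe for NM_001161473 had intensities of 1221, 453 and 631, with ratios of 0.423 and 0.503. The probe for NM_001290058 had intensities of 427, 172 and 253, with ratios of 0.461 and 0.578. Thus every probe ran in the same order, with H1975 the brightest and OR1 the dimmest. All 3 probes passed 0.5 in OR1 and none did in OR2, where the log2 SD of each ratio was 0.204 to 0.205. OR2 over OR1 was 1.18, 1.19 and 1.25 on the 3 probes, a difference a little above the technical SD of its log2 value. With spike-in scaling the brightest probe gave 0.297 in OR1 and 1.88 for OR2 over OR1.

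To show that the ALDH3B1 readings rest on separate stretches of the transcript, 2 of these probes are printed here, 5′ to 3′, with capitals marking the longest run shared with a probe of any other aldehyde dehydrogenase gene on the array. The positions are on hg19, plus strand.
ALDH3B1, NM_001290058, chr11:67786661-67786720: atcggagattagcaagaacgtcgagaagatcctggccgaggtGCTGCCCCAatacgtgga
ALDH3B1, NM_001161473, chr11:67793516-67793575: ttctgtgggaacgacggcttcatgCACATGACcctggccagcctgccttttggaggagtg
The shared run has 9 bases in the first, with a probe of ALDH1A3, and 8 in the second, with the probe of ALDH3B2. Over all 18 probes the longest such run was 7 to 9 bases, and none of the 18 shared 20 bases in a row with a probe of another gene. Probes were compared only with other probes and not with whole transcripts. Whether RNA of another gene, such as ALDH3B2, binds to these probes was therefore not tested.

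ALDH3A2, the fatty aldehyde dehydrogenase that is lost in Sjögren-Larsson syndrome, was bright in all lines. Its brighter probe (NM_000382, chromosome 17, 19575195 to 19575254, plus strand) had an intensity of 1949 in H1975, against 1900 in OR1 and 2695 in OR2. The probe for NM_001031806 (19580832 to 19580891) had intensities of 855, 674 and 1200. OR2 was the brightest line on both probes. The ratios in OR2 were 1.35 and 1.37, above the technical SD but short of 2. In OR1 the probes lay on different sides of 1, at 1.11 and 0.899, and the brighter probe turned to 0.733 with spike-in scaling and 0.975 without scaling. OR2 over OR1 was 1.21 on the brighter probe (1.93 with spike-in scaling) and 1.52 on the other.

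ALDH3A1, which is abundant in cornea and is also found in some lung carcinomas, was not well above background in any line. Its probes (NM_001135168 at 19641655 to 19641714 and NM_000691 at 19643743 to 19644417 of chromosome 17, minus strand) read at most 9.02 and at most 2.92. Its brighter probe lies 66.5 kb from that of ALDH3A2.

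ALDH1L1 had the largest difference from H1975 among the members. It is the cytosolic 10-formyltetrahydrofolate dehydrogenase, which releases carbon from the folate pool as carbon dioxide, and it is known as an astrocyte marker and as a gene that is often low in carcinomas. The intensity was 90.2 in OR1 and 97.3 in OR2, against 11.05 in H1975, where the probe did not pass the background call. Both resistant lines were thus well above the parent and close to each other. The ratio was at least 8.19 for OR1 and at least 7.54 for OR2, with a log2 SD of 0.152 for the bright side. OR2 over OR1 was 0.920 (log2 SD 0.215), within its technical SD, and turned to 1.46 with spike-in scaling, where the bound in OR1 was at least 5.4. With normexp correction and its offset of 50, the bounds were at least 2.14 and at least 2.04, which still passed 2. The single probe is printed because this reading rests on it alone, with the capitals marking the longest run shared with a probe of another aldehyde dehydrogenase gene, here 7 bases with ALDH3A2.
ALDH1L1, NM_012190, chr3:125824747-125826021, hg19, minus strand: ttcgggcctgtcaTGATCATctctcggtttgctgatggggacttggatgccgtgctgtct
Its 60 bases span 1275 bases of the genome, as a probe across an exon junction does.

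ALDH7A1, also called antiquitin, oxidizes an intermediate of lysine breakdown and is the gene of pyridoxine-dependent epilepsy. Its brightest probe had an intensity of 1905 in H1975, against 2449 in OR1 and 2293 in OR2. The ratios were 1.47 in OR1 and 1.17 in OR2, each with a log2 SD of 0.204, and the OR1 ratio turned to 0.967 with spike-in scaling. OR2 over OR1 was 0.799 and turned to 1.27 there. This probe also crosses a junction, with 60 bases over a span of 1364, and is printed since the other probes of the gene read differently. The capitals mark a run of 8 bases shared with a probe of ALDH5A1.
ALDH7A1, NM_001182, chr5:125880700-125882063, hg19, minus strand: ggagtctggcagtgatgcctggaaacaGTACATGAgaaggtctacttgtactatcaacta
The probe at 125879018 to 125879077 had intensities of 15.8, 30.4 and 36.7, near the lowest value called well above background in H1975. Its ratios were 2.20 (log2 SD 0.329) and 2.27 (log2 SD 0.325). The probe at 125877562 to 125877621 read 22.6 in OR1 and 19.8 in OR2 but 3.11 in H1975, where it was not well above background, which gave at least 2.05 and at least 1.53. So all 3 probes were higher in both resistant lines with the main scaling. Both dim probes passed 2 in OR1, 1 of them passed in OR2, and the median over the probes gave 2.20 in OR1 and 2.27 in OR2 where the brightest probe did not pass.

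**Figure D3:**
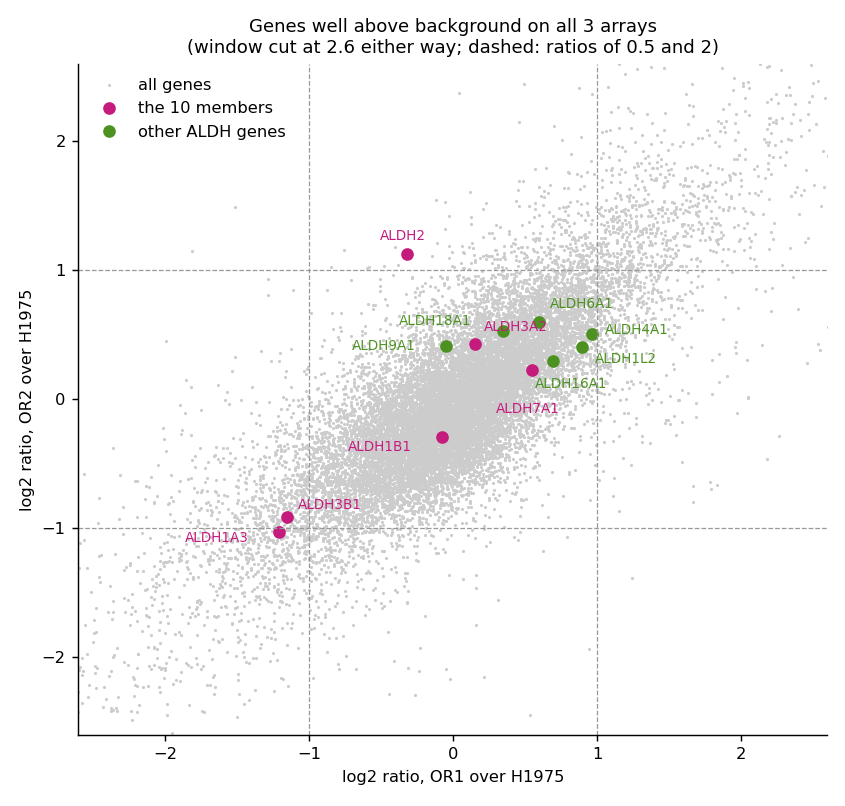
log2 ratio of OR2 to H1975 against that of OR1 to H1975 for 18591 genes measured in all lines (grey, window cut at 2.6 either way), with the 6 members measured in all lines in magenta and 6 other aldehyde dehydrogenase genes in green; ALDH1L1 is a bound and is not drawn. ALDH1A3 and ALDH3B1 lie at the lower left, near ratios of 0.5 in both lines, and ALDH2 lies above the cloud of genes, higher in OR2 and not in OR1.

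The array held 9 other aldehyde dehydrogenase genes, of which 8 were well above background in at least 1 line. ALDH3B2, the close relative of ALDH3B1 at a distance of 365 kb on chromosome 11, had an intensity of 246 in H1975, against 10.0 in OR1 and 11.2 in OR2, and both resistant lines were below the well-above-background call. The ratios were at most 0.0529 and at most 0.0500, so this gene was lower together with ALDH3B1 in OR1. ALDH5A1, the succinic semialdehyde dehydrogenase of GABA breakdown, read 30.0 in H1975, against 9.38 in OR1 and 32.5 in OR2, with ratios of at most 0.434 and of 1.06. No other aldehyde dehydrogenase of this list was past the ratio on its brightest probe. The shares of all genes lower past the ratio were 9.58% in OR1 and 8.7% in OR2. Among 18591 genes measured in all lines, 9720 had ratios above 1 in OR1 and 8575 in OR2. Among the 6 of this list measured in all lines, 5 were higher in OR1 (3 of 6 with spike-in scaling) and 6 of 6 in OR2. Their median log2 ratio was 0.65 in OR1, or 0.04 with spike-in scaling, and 0.46 in OR2. ALDH4A1 of proline breakdown had ratios of 1.95 and 1.42 on its brightest probe and of 2.22 and 1.61 on a dimmer one, so that the dimmer probe passed 2 in OR1. Neighbouring genes were examined for the 7 members well above background in at least 1 line. The 20 nearest genes measured in all lines had median ratios from 0.876 to 1.17 in OR1 and from 0.680 to 1.19 in OR2. Those around ALDH3B1 had medians of 1.13 and 0.787 and those around ALDH1A3 0.944 and 0.867, so both genes were lower than the median of their neighbours in both lines.

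The pathways around these enzymes were described with lists of related genes. In retinoid supply and breakdown, 12 of 18 genes were well above background in at least 1 line. In OR1 1 was higher and 4 were lower, and in OR2 1 was higher and 5 were lower. The same 4 were lower in both lines. The shares of all genes were 9.17% higher and 9.58% lower in OR1, 7.72% and 8.7% in OR2, and 6.32% lower in both. STRA6, the membrane receptor that takes up retinol, read 1542 in H1975, against 169 in OR1 and 175 in OR2, with ratios of 0.125 and 0.111. CRABP2, which carries retinoic acid to the nucleus, read 3014, 788 and 727, with ratios of 0.298 and 0.235, although a second, dim probe gave 1.13 and 0.713. DHRS3, which reduces retinaldehyde back to retinol, read 2282, 604 and 225, with ratios of 0.302 and 0.0960. The median log2 ratio of the 9 genes measured in all lines was -0.54 in OR1 and -1.0 in OR2, and ALDH1A3 was lower in the same lines. The retinoic acid hydroxylases CYP26A1, CYP26B1 and CYP26C1 were not well above background in any line.

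Among retinoid receptors and targets, 8 of 11 genes were well above background in at least 1 line. In OR1 2 were higher and 2 lower, beside 9.17% and 9.58% of all genes. In OR2 2 were higher and 3 lower, beside 7.72% and 8.7%. With 8 genes measured in OR1 and 7 in OR2, these counts are too small to set the list apart from the background. RARG, a retinoic acid receptor, was lower in both, with intensities of 3118 in H1975, against 691 in OR1 and 1002 in OR2 and ratios of 0.253 and 0.313. RARRES1, a gene named for its induction by retinoids, read 15.7, 37.7 and 39.1, with ratios of at least 2.75 and at least 2.43. TGM2, a transglutaminase induced by retinoic acid, had ratios of 0.451 and 0.301 on its brightest probe and 4.99 and 2.01 on a probe for another transcript, NM_198951, so its probes disagreed in direction.

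**Figure D4:**
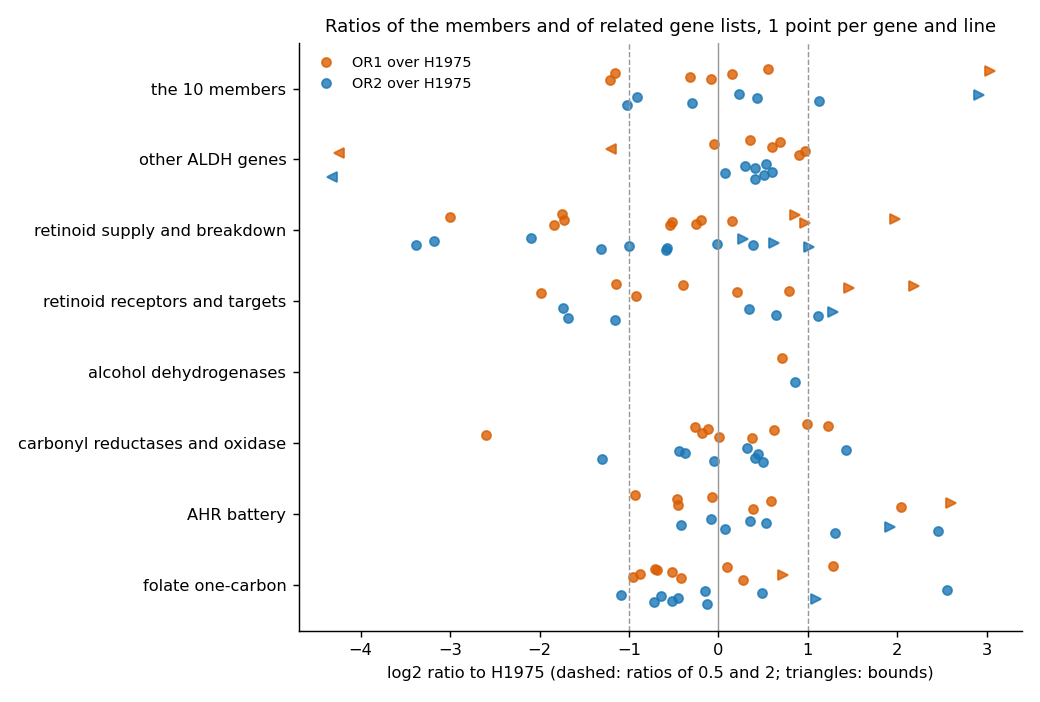
log2 ratio to H1975 of the members and of 7 lists of related genes, 1 point per gene and line, for genes well above background in at least 1 of the lines compared; triangles are bounds and dashed lines mark ratios of 0.5 and 2. Most genes of the retinoid supply list lie left of 0, with 4 of them left of 0.5 in both lines, and most other aldehyde dehydrogenase genes lie between 0 and a ratio of 2, although in OR1 3 of 6 were above 0 with spike-in scaling.

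Of 7 alcohol dehydrogenases, only ADH5 was well above background. It read 167 in H1975, against 239 in OR1 and 311 in OR2, with ratios of 1.63 and 1.82. Among carbonyl reductases and aldehyde oxidase, which handle aldehydes by other routes, 9 of 10 listed genes were found on the array and all 9 were well above background. AKR1B10, which reduces retinaldehyde and lipid aldehydes, read 1453, 210 and 605, with ratios of 0.165 and 0.405 and nearly the same on its other probe. CBR4, a mitochondrial reductase, read 249, 512 and 690, with ratios of 2.34 and 2.69. These were the only genes of the list past the ratio, beside 5.09% of all genes higher and 6.32% lower in both lines.

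ALDH3A1 is a classical target of the aryl hydrocarbon receptor, and other genes of that battery moved both ways. Of 8 such genes, all well above background in at least 1 line, 2 were higher in OR1 and 3 in OR2, where 9.17% and 7.72% of all genes were higher. No gene of the battery was lower past the ratio with the main scaling, beside 9.58% of all genes in OR1 and 8.7% in OR2. With spike-in scaling 3 were lower in OR1. The median log2 ratio of the 7 measured in all lines was -0.07 in OR1 (-0.68 with spike-in scaling) and 0.36 in OR2. In OR1 4 of these 7 had ratios below 1, from NQO1 at 0.522 to TIPARP at 0.950. CYP1A1 read 4.59 in H1975, against 67.0 in OR1 and 49.0 in OR2, and its ratios were at least 6.09 and at least 3.80. AHRR, the repressor of the receptor, read 54.3, 197 and 306, with ratios of 4.14 and 5.49. The receptor gene AHR had ratios of 1.31 and 2.47.

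Of 10 genes of folate metabolism, in which ALDH1L1 acts, all were well above background in at least 1 line. In OR1 1 was higher and 0 lower (0 and 6 with spike-in scaling), and in OR2 2 were higher and 1 lower. With the main scaling the shares of all genes were 9.17% and 9.58% in OR1 and 7.72% and 8.7% in OR2. FTCD, which like ALDH1L1 acts on tetrahydrofolate derivatives and is known mainly from liver, read 250 in H1975, against 532 in OR1 and 1514 in OR2, with ratios of 2.43 and 5.89. A second FTCD probe gave 2.53 and 7.06. The median log2 ratio of the 9 folate genes measured in all lines was -0.52 in OR1 and -0.45 in OR2. ALDH1L1 and FTCD were thus higher where most of the list had ratios below 1.

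Of the 73 genes of all 7 lists, 56 were measured in OR1 over H1975, with 7 higher and 9 lower, and 55 in OR2 over H1975, with 9 higher and 11 lower. The shares of all genes were 9.17% and 9.58% in OR1 and 7.72% and 8.7% in OR2. In both lines 5 were higher and 8 lower, beside 5.09% and 6.32% of all 22418 genes. With spike-in scaling 4 were higher and 22 lower in OR1, where RARRES1, CBR4 and FTCD no longer passed 2. The genes whose pair of ratios was closest to that of ALDH1A3, by Euclidean distance on the log2 scale among 18591 genes, were CTHRC1 with 0.434 and 0.487 (distance 0.0124), DTL with 0.431 and 0.481, and IMPA1 with 0.436 and 0.503. The likeness covers 2 ratios from 3 arrays that share the H1975 array.

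**Figure D5:**
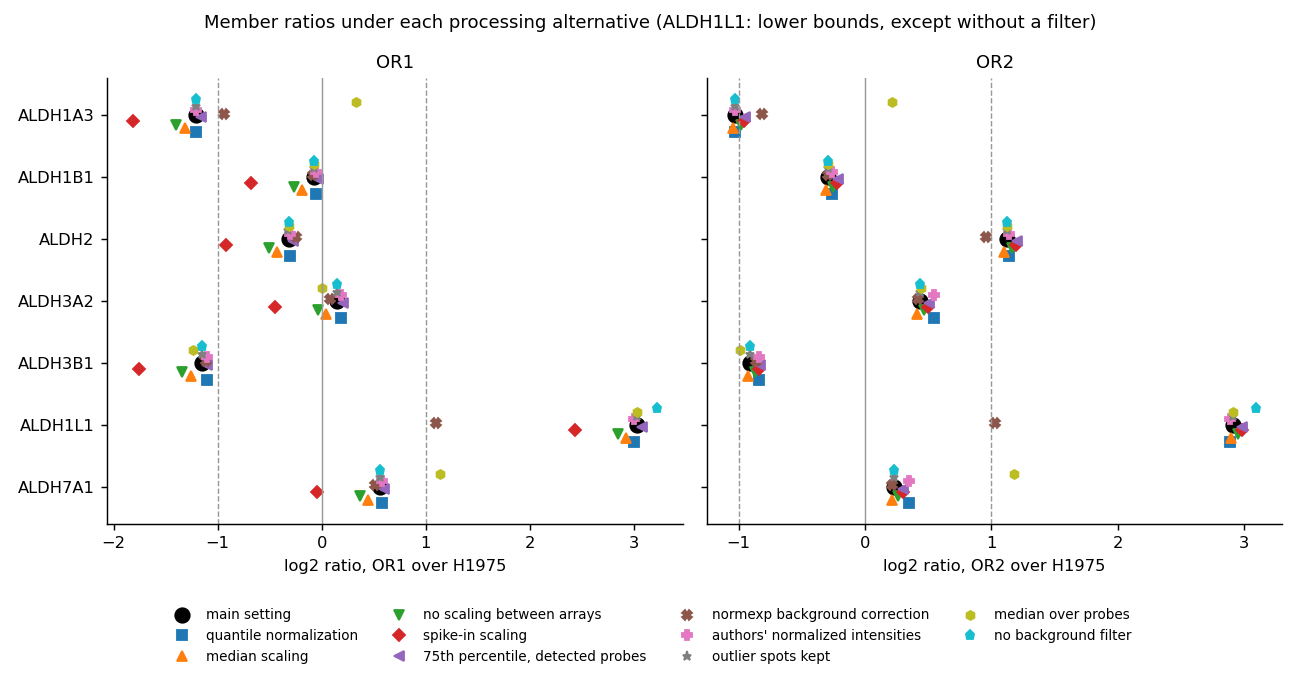
log2 ratio to H1975 of the 7 members with a ratio, in OR1 on the left and OR2 on the right, under the main setting (black) and each processing alternative; dashed lines mark ratios of 0.5 and 2. In OR1 spike-in scaling lies left of the other scalings for every gene, normexp correction moves ALDH1L1 closest to a ratio of 2, and the median over probes moves ALDH1A3 to the right of 0 in both lines.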

How the data were processed

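The authors extracted total RNA, labelled Cy3 complementary RNA and hybridized it to Agilent SuperPrint G3 Human 8x60K arrays, 1 array per line and all 3 on the same slide. The deposited scanner files hold intensity values corrected for background within each array but not scaled between arrays, their error estimates, and flags for outlier, saturated and well-above-background spots. Their headers name Feature Extraction 10.7.1.1, and the submitters' processing notes name 9.5.1.1. A deposited table holds the authors' normalized intensity values, 1 per probe, whose log2 values differed from quantile-normalized scanner values by a median of 0.0013.

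Control spots and outlier spots (45 in H1975, 61 in OR1 and 46 in OR2) were left out. Log2 values of repeated spots were averaged and expressed relative to the array's 75th percentile of non-control probes. The brightest probe by mean scaled log2 intensity stood for a gene. Each member probe was spotted 1 time. On each array 300 probes were spotted 10 times, with a median SD of 0.054 on the log2 scale. The number of arrays limits the precision. Calls used ratios of at least 2, with the OR line well above background, or at most 0.5, with H1975 well above background. Positions were taken from the files, on hg19. No exon or UTR annotation of that build was used here, and RefSeq accessions (GRCh38.p14) served for names only.

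The members and lists were chosen with earlier results of these data known. Named besides the members are, per list, the 3 genes with the largest change in the less changed line among those past the ratio in both lines, and the 3 genes nearest in pattern to the member with the longest vector of ratios. Other genes were named after their values were seen. The alternatives were other scalings, normexp, the authors' values, other probe and background filters and other ratios. The counting was tested on simulated data. Python 3.11.15, numpy 2.4.6, pandas 2.3.3, R 4.3.3 and limma 3.58.1 (for normexp) were used. Quantile normalization was computed in Python.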

Additional observations from a re-analysis of the deposited data

Results flagged for a closer look

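ALDH2 was higher than H1975 in OR2, with intensities of 260 in H1975 and 583 in OR2, and not in OR1, with 183, so that the resistant lines lay on different sides of the parent. Its ratio of OR2 over OR1 was 2.72, between 2.31 with normexp correction and 4.33 with spike-in scaling. With 1 array per line and 1 probe for the gene, the difference was not tested.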

How the results depend on the processing

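Of 210 member ratios recomputed under the alternatives, 176 moved by less than the technical SD, 32 moved further, and 2 reversed, those of ALDH1A3 with the median over probes (1.26 in OR1 and 1.16 in OR2), by a probe at background. In all 12 of the 210 crossed a ratio of 1, these 2 included, and the others had not been past 2 or 0.5. Not all of these recomputations were separate checks. Keeping outlier spots or dropping the background filter left nearly every member ratio as it was. The authors' values nearly repeat quantile normalization, with a median log2 difference of 0.0013. Members lower in OR2 and in both lines numbered 0 without scaling, with spike-in scaling, with the 75th percentile over detected probes, with normexp and with the median over probes. Normexp left 1 lower in OR1 and 1 higher in OR2. The median over probes gave 2 higher and 1 lower in OR1 and 2 higher in both. Requiring all arrays well above background gave 0 higher in OR1 and in both and 1 in OR2, since ALDH1L1 is then not counted. At a ratio of 1.5, 2 members were lower in OR2 and 2 in both, and at 4 none was lower (0 in OR1, OR2 and both) and 1 was higher in OR2. Quantile normalization, median scaling, the authors' values, kept outlier spots and no background filter left the same members past the ratio.

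The counts of all genes in OR1 were 771 higher and 5579 lower with spike-in scaling, with 591 higher in both lines. Normexp gave 785 higher and 1126 lower in OR1, 668 and 916 in OR2, and 461 and 705 in both. Requiring all arrays well above background gave 1246 lower in OR2 and 874 in both. No background filter gave 4558 and 3677, 3687 and 3743, and 2057 and 2437 in the same order. A ratio of 1.5 gave 4423 and 4079, 3734 and 4357, and 2573 and 2957. A ratio of 4 gave 464 and 607, 381 and 518, and 265 and 422.

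Of the 73 listed genes, spike-in scaling gave 4 higher and 22 lower in OR1 and 2 higher in both. Normexp gave 4 higher in OR1, 5 in OR2 and 3 in both, and all arrays well above background gave 3, 5 and 3. No filter gave 8 higher in both. A ratio of 1.5 gave 18 higher and 15 lower in OR1 and 11 higher in both, and a ratio of 4 gave 3 and 3 in OR1, 2 and 4 in OR2, and 1 and 2 in both. Why these counts moved under the scalings and normexp was not tested. No paired analysis was possible because each line was measured on 1 array. With the background filter, genes not well above background on an array of the comparison have only a bound or no ratio. That call is made per spot and not at a fixed intensity, and RARRES1, at 15.7 in H1975, did not pass it.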
